A study of Homo sapiens with 6 samples.

Results

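The cornified envelope genes described here were SPRR1B, SPRR2A, SPRR2D, SPRR2E, SPRR2F, IVL and CRCT1, 7 of the 6641 genes in the deposited table, all from the epidermal differentiation complex on chromosome 1. They were chosen by name from the values of HCC827_Er and HCC827, so the difference between the lines in these 7 genes is a description and carries no test. RNA was sequenced from HCC827_Er in 3 libraries and from HCC827 in 3 libraries. HCC827 is an established cell line from a human lung adenocarcinoma with mutant, active EGFR. HCC827_Er is the other line of this study of parental and resistant cells, which asked how the histone mark Kcr, lysine crotonylation, bears on resistance to EGFR kinase inhibitors. The labels do not spell out the suffix, name no drug or dose in the cultures, and leave unsaid whether replicate libraries stem from separate cultures, so the spread behind each p-value may be technical. Each line is 1 cell line, and no second resistant line was analysed here.

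The cornified envelope is the cross-linked protein shell that replaces the plasma membrane of dying keratinocytes in skin and other stratified epithelia. Involucrin, encoded by IVL, is laid down early as a scaffold, and transglutaminases then join small proline-rich proteins, encoded by the SPRR genes, to it through glutamine and lysine residues. In airway epithelium, SPRR and involucrin transcripts are known as marks of squamous differentiation, which retinoids hold back. CRCT1 encodes a small cysteine-rich protein of the same gene complex. Transcription of IVL and SPRR genes is known to use AP-1, a dimer of FOS-type and JUN-type proteins, together with ETS-type factors and, at SPRR2A, the POU-domain protein that binds the octamer motif.

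The upstream sequences are shown first, because the same 2 motifs recur in them and because the genes for the proteins that bind these motifs were measured in the same libraries. RefSeq promoters on GRCh38.p14 matched 4 of the 7 genes. The 250 bases before the annotated transcript start are printed 5′ to 3′ on the gene's own strand, with matches to the AP-1 motif TGANTCA, which reads the same on both strands apart from its middle base, and to the octamer ATTTGCAT, searched on both strands, in capitals. IVL lies at chr1:152908296-152908545 on the plus strand, SPRR1B at chr1:153030953-153031202 on the plus strand, SPRR2A at chr1:153057513-153057762 on the minus strand and SPRR2F at chr1:153113517-153113766 on the minus strand.
IVL: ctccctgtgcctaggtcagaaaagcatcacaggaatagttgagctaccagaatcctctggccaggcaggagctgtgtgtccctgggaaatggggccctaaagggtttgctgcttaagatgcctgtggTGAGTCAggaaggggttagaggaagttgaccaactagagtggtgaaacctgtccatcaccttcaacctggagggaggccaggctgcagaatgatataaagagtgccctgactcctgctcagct
SPRR1B: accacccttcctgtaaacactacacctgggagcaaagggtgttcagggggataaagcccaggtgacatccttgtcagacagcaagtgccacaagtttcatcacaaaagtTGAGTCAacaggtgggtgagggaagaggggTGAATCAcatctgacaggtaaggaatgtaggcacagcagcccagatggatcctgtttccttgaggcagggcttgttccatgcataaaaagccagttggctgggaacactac
SPRR2A: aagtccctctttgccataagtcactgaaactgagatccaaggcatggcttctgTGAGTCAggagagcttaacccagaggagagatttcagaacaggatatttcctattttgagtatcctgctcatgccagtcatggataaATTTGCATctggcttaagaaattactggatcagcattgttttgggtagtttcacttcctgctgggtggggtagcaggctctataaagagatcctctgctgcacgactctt
SPRR2F: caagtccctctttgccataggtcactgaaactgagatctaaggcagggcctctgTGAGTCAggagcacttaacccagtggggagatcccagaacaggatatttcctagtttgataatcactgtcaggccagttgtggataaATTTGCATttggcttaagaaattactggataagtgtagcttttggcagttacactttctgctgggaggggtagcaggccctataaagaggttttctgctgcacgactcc

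All 4 sequences held TGANTCA, with 2 matches in SPRR1B and 1 in each of the others, while 6.57% of 35116 RefSeq promoter windows of the same length did. Of 5 other SPRR genes with a promoter in the same source, SPRR1A, SPRR3 and SPRR2G held it and SPRR2B and SPRR4 did not. The match began 123 bases before the start of IVL, 141 and 111 bases before that of SPRR1B, 197 bases before that of SPRR2A and 196 bases before that of SPRR2F. ATTTGCAT was present in SPRR2A, 110 bases before the start, and in SPRR2F, 109 bases before it, and in 1.63% of all windows. SPRR2A and SPRR2F are related copies with 85.7% identity over these 250 bases, so their shared matches are not independent. Both motifs together occurred in 60 of the 35116 windows (0.171%). An ETS-type core, GGAAGT on either strand, was found in IVL and SPRR2A and in 19.5% of all windows, and it overlapped neither motif in these sequences. The sequence TATAAA on either strand began 30 bases before the start of IVL and SPRR2A and 29 bases before that of SPRR2F, and was present in 10.7% of all windows. A match says only that these letters occur in the window.

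**Figure D1:**
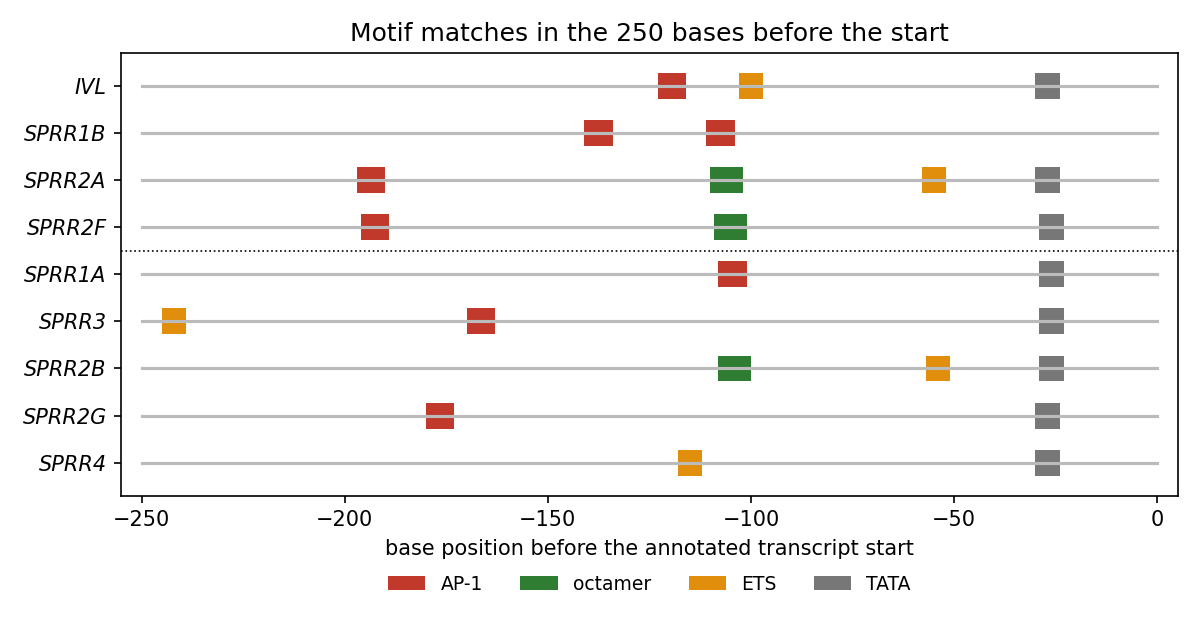
Matches to 4 motifs (coloured boxes) in the 250 bases before the annotated transcript start, in bases on the horizontal axis. The 4 described genes with a RefSeq promoter stand above the dotted line and 5 other SPRR genes below it; the AP-1 box recurs in all 4 upper rows, and the octamer box in SPRR2A, SPRR2F and SPRR2B.

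The 5 SPRR genes were read out in HCC827_Er at low levels and were listed at 0 in every HCC827 library. SPRR1B (ENSG00000169469, chr1:153031202-153032900), which encodes cornifin-B, stood at 3.85, 3.91 and 4.71 FPKM in the HCC827_Er libraries, against 0 in all 3 HCC827 libraries. All 3 HCC827_Er libraries lay above the HCC827 libraries, and replicate 3 was the highest. A listed 0 in a table without counts can be a failed estimate as well as an absent transcript, so no fold is given against it. In bulk RNA, more expressing cells and more RNA per cell cannot be told apart.

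SPRR2D (ENSG00000163216, chr1:153039725-153041931) stood at 3.51, 4.61 and 3.43 FPKM in HCC827_Er, against 0 in all 3 HCC827 libraries. SPRR2A (ENSG00000241794, chr1:153056113-153057537) stood at 2.12, 2.27 and 3.38 FPKM in HCC827_Er, against 0 in all 3 HCC827 libraries. Neither gene overlapped between HCC827_Er and HCC827, but the highest HCC827_Er library differed, replicate 2 for SPRR2D and replicate 3 for SPRR2A. SPRR2F (ENSG00000244094, chr1:153112114-153113515) stood at 1.70, 2.09 and 2.54 FPKM in HCC827_Er, against 0 in all 3 HCC827 libraries. SPRR2E (ENSG00000203785, chr1:153093135-153106184) stood at 1.42, 2.22 and 1.52 FPKM in HCC827_Er, against 0 in all 3 HCC827 libraries. Like SPRR2D, SPRR2E was highest in replicate 2, while SPRR2F followed SPRR2A and SPRR1B with its highest value in replicate 3.

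IVL (ENSG00000163207, chr1:152908545-152911886) stood at 1.02, 1.01 and 1.42 FPKM in HCC827_Er, against 0, 0 and 0.03 FPKM in HCC827. The libraries did not overlap, and the difference in mean log2(FPKM + 1) was 1.09 (SE 0.11). CRCT1 (ENSG00000169509, chr1:152514502-152516010) went the other way, listed at 0 in all 3 HCC827_Er libraries, against 1.43, 1.02 and 2.10 FPKM in HCC827. It was thus the only one of the 7 that was present in HCC827 in all 3 libraries and listed at 0 in HCC827_Er.

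**Figure D2:**
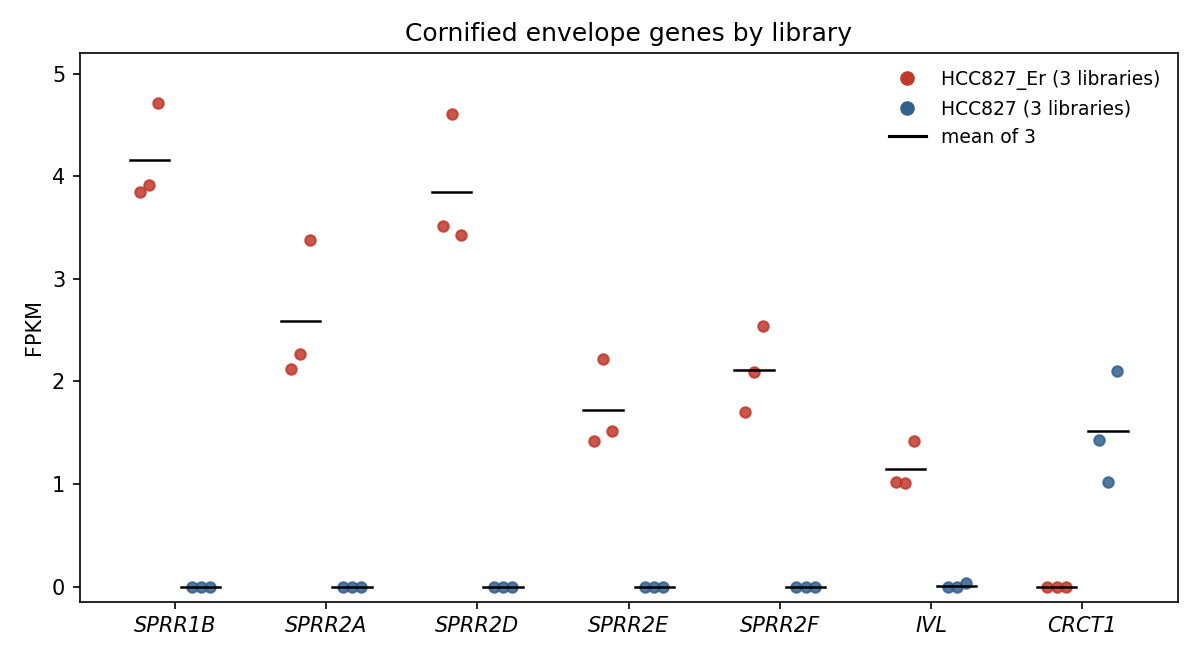
FPKM of the 7 genes in each library, HCC827_Er left and HCC827 right of each tick, with a black line at the mean of 3. The SPRR genes and IVL lie between 1.01 and 4.71 FPKM in HCC827_Er and at 0 to 0.03 in HCC827, and CRCT1 is reversed.

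All 7 passed the minimum of FPKM 1 in 3 libraries, in each case only through the line in which they were higher, so they had to differ to be included. The same limit holds for other tested genes under FPKM 1 in every library of a line, such as FOSB, POU2F3, SCEL and KLK6. Such genes are part of the counts of every list below that had tested genes. In the fit, 6 were past the call threshold higher and CRCT1 lower. At these low levels the size of the difference hangs on the pseudocount: with 5 in place of 1 none of the 7 reached a log2 difference of 1, SPRR1B coming nearest at 0.87, IVL standing at 0.30 and CRCT1 at -0.38. IVL was also under 1 with median ratios (0.98) and, by a smaller margin, without replicate 3 of HCC827_Er (0.997). Of all 5276 tested genes 24.7% were called higher and 19.7% lower, a call being an adjusted p under 0.05 by limma and a log2 difference of at least 1. These shares are the background for the list counts below. The 3 HCC827_Er libraries lay wholly above HCC827 for 50.0% of the tested genes and wholly below for 47.1%. A lack of overlap thus sets no gene apart in this table. The limma adjusted p was under 0.05 for 5187 of the 5276 tested genes, so a small p-value sets no gene apart either. Rescaling the libraries changed the overall balance, to 896 higher and 1657 lower with median ratios and 1825 higher and 794 lower with equal sums, against 1304 and 1041 as deposited. The median log2 difference of all genes was 0.43 as deposited, 0.18 with median ratios and 0.61 with equal sums, and none of 75 other genes named here changed direction with either scaling. A gene listed at 0 in a whole line, as 6 of the 7 were, cannot change direction when libraries are rescaled.

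The levels within HCC827_Er followed the order SPRR1B, SPRR2D, SPRR2A, SPRR2F, SPRR2E and IVL, on the FPKM scale, which is per transcript length. The means were 4.16 ± 0.480, 3.85 ± 0.659, 2.59 ± 0.688, 2.11 ± 0.420, 1.72 ± 0.436 and 1.15 ± 0.234 FPKM in that order (SD, n = 3). Of the 5 neighbouring pairs in this order, only SPRR2D and SPRR2A did not overlap, with a lowest SPRR2D value of 3.43 and a highest SPRR2A value of 3.38 FPKM. The others overlapped between libraries, although SPRR2A was above SPRR2F and SPRR2E above IVL in each of the 3 libraries. Against the other listed genes these were middle to low levels. SPRR1B stood above between 47.0% and 50.6% of the listed genes of its library, IVL above between 25.4% and 30.9%, and CRCT1 in HCC827 above between 30.2% and 40.1%.

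The summed FPKM of the 5 SPRR genes was 12.60, 15.10 and 15.58 in HCC827_Er, against 0 in all 3 HCC827 libraries. SPRR1B made up 25.9% to 30.6% of this sum in HCC827_Er and SPRR2D 22.0% to 30.5%. SPRR2A made up at most 21.7%, SPRR2F 13.5% to 16.3% and SPRR2E 9.8% to 14.7%. The sum was 10.97 to 14.95 times the FPKM of IVL.

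The split among the SPRR2 genes is uncertain, since their coding sequences are nearly the same. The GENCODE 29 coding sequences (GRCh38, minus strand) are printed to show how few bases tell them apart. Bases that differ from SPRR2D are in capitals. SPRR2D spans chr1:153040131-153040346, SPRR2A chr1:153056520-153056735, SPRR2E chr1:153093536-153093751 and SPRR2F chr1:153112518-153112733, each 216 bases without the stop codon.
SPRR2D: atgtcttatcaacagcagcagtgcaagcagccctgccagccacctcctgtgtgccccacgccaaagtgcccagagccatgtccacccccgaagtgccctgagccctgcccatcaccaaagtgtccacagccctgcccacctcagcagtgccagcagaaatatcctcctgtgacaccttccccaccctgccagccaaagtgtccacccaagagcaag
SPRR2A: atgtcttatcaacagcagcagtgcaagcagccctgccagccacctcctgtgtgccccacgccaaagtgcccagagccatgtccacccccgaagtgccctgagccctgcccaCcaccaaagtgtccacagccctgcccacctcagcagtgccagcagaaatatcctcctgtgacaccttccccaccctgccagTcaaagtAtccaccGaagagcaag
SPRR2E: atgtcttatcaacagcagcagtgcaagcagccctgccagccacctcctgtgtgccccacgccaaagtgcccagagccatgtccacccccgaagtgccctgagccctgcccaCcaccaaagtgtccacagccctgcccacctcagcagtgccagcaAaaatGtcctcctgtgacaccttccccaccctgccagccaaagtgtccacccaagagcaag
SPRR2F: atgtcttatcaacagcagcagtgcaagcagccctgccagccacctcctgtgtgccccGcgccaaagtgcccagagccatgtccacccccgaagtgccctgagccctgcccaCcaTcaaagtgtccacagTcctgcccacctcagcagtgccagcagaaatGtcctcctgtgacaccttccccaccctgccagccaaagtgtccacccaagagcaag

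SPRR2A differed from SPRR2D at 4 bases, SPRR2E at 3 and SPRR2F at 5, and the 6 pairs were 96.8% to 98.6% identical. Of all distinct 75-base windows of the annotated transcripts, 19.1% of those of SPRR2A, 16.8% of SPRR2E, 4.61% of SPRR2F and 7.56% of SPRR2D also occurred in another of the 7 genes. No window of SPRR1B, IVL or CRCT1 did. With windows of 40 bases the shares were 37.9% for SPRR2A, 26.3% for SPRR2E, 24.8% for SPRR2F and 20.5% for SPRR2D, and again 0 for the other 3. The sum of the 4 SPRR2 genes depends less on how reads were split among them, and was 8.75, 11.19 and 10.87 FPKM in HCC827_Er, against 0 in all 3 HCC827 libraries. Sharing with other SPRR2 genes was not analysed here.

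Of 40 other genes of the epidermal differentiation complex, among them the loricrin, filaggrin and late cornified envelope genes, 4 were in the table and none reached the minimum FPKM. SPRR1A, a close relative of SPRR1B, stood at 1.49, 0.49 and 0.89 FPKM in HCC827_Er, against 0 in all 3 HCC827 libraries. SPRR3, an esophageal-type SPRR gene, stood at 0.52, 0.48 and 0.76 FPKM in HCC827_Er, against 0 in all 3 HCC827 libraries. PGLYRP4, which encodes a peptidoglycan-binding protein, stood at 0.80, 0.58 and 1.03 FPKM in HCC827_Er, against 0 in all 3 HCC827 libraries. These 3 genes were thus listed at 0 in the same line as the 5 SPRR genes above. HRNR, which encodes the late keratinocyte protein hornerin, stood at 0.02, 0.01 and 0.02 FPKM in HCC827_Er and at 0.12, 0.20 and 0.16 FPKM in HCC827, the same side as CRCT1. The other 36 were not analysed here.

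By position, 24 other listed genes lay within 1 Mb of the 599.0 kb from CRCT1 to SPRR2F, and 18 of them were tested. Of these 18, 10 were called higher and 3 lower in HCC827_Er, with a median log2 difference of 1.08. Of the 501 other tested genes of chromosome 1, 111 were called higher and 98 lower, with a median of -0.53. The genes called higher near the complex included S100A7, S100A8, S100A9, S100A12, S100A14, S100A4, S100A5 and S100A13, which encode small calcium-binding proteins and lie on the side of SPRR2F. S100A9 reached 1225 ± 74.5 FPKM in HCC827_Er and 8.84 ± 1.21 FPKM in HCC827, and S100A14 32.1 ± 2.70 FPKM in HCC827_Er and 1.09 ± 0.183 FPKM in HCC827 (SD, n = 3). On the side of CRCT1, CGN, which encodes the tight junction protein cingulin, rose to 37.1 ± 1.02 FPKM in HCC827_Er, against 4.74 ± 0.520 FPKM in HCC827 (log2 difference 2.74).

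The direction was not uniform across the segment. S100A3, next to S100A4, fell to 3.01 ± 0.728 FPKM in HCC827_Er, against 11.5 ± 1.39 FPKM in HCC827 (log2 difference -1.65, limma adjusted p = 1.15e-05). NPR1, a natriuretic peptide receptor gene, was listed at 0 in all 3 HCC827_Er libraries, against a mean of 1.30 FPKM in HCC827, and the unnamed locus ENSG00000271853 was called lower as well, though not without replicate 2 of HCC827_Er (-0.82). S100A6, SLC27A3, SLC39A1, TDRKH-AS1 and ENSG00000282386 were not called, with log2 differences of 0.92, 0.99, -0.83, 0.94 and -0.83. Each of these 5 crossed the minimum under at least 1 alternative, such as S100A6 without replicate 2 of HCC827 (1.00). CELF3 and S100A7A were under the minimum, at means of 0.230 and 0.670 FPKM in HCC827_Er and 0.01 and 0.1 FPKM in HCC827. Over the whole S100 list, 8 of 10 tested genes were called higher and 1 lower, with a median log2 difference of 2.19. All 10 are among the 18 tested neighbours, so this count is part of theirs.

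**Figure D3:**
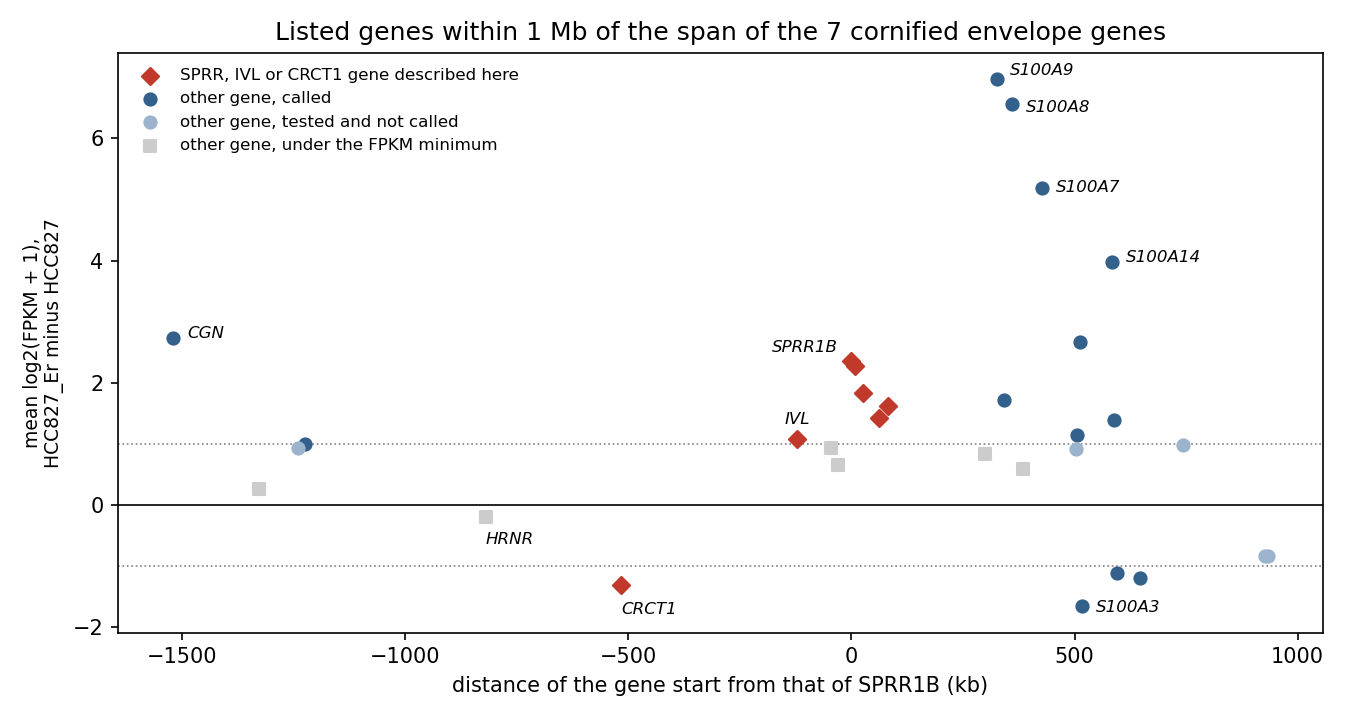
Difference in mean log2(FPKM + 1), HCC827_Er minus HCC827, against the distance of each gene's start from that of SPRR1B in kb, for the 7 genes (diamonds) and the 24 listed genes within 1 Mb of them; dotted lines mark the call threshold of 1. The SPRR genes and IVL lie above 0, S100A9 highest at 6.97, and CRCT1 and S100A3 below 0, S100A3 at -1.65; for genes listed at 0 in a line the plotted value is no fold.

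Scaffold and plaque proteins to which SPRR proteins are joined, or which anchor the envelope, were mostly higher in HCC827_Er. Of 11 tested genes 7 were called higher and 1 lower, with a median log2 difference of 1.35, beside 0.43 over all tested genes. EVPL and PPL, which encode the plakins envoplakin and periplakin, rose to 20.9 ± 1.83 and 10.2 ± 0.427 FPKM in HCC827_Er, against 4.74 ± 0.212 and 1.56 ± 0.125 FPKM in HCC827 (log2 differences 1.93 and 2.12, SE 0.10 for both, limma adjusted p = 1.90e-07 and 1.79e-07). SCEL, which encodes the envelope precursor sciellin, rose to 17.8 ± 1.33 FPKM in HCC827_Er, against 0.147 ± 0.142 FPKM in HCC827. The plakophilin gene PKP2 rose to 7.52 ± 0.757 FPKM in HCC827_Er, against 1.37 ± 0.101 FPKM in HCC827. PI3, which encodes the protease inhibitor elafin, itself a transglutaminase substrate, fell to 9.70 ± 1.15 FPKM in HCC827_Er, against 34.1 ± 5.02 FPKM in HCC827 (log2 difference -1.71, adjusted p = 1.97e-06). CSTA, the cystatin A gene, was under the minimum at 0.80, 0.39 and 1.15 FPKM in HCC827_Er, against 0 in all 3 HCC827 libraries. Of the 3 not called, ANXA1, the most abundant of the list, was lower, at 788 ± 46.0 FPKM in HCC827_Er and 1191 ± 33.0 FPKM in HCC827 (log2 difference -0.60). SERPINB2 was lower as well (-0.67) and JUP higher (0.73). With a pseudocount of 5 in place of 1, 3 of the 11 were called higher.

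Enzymes and inhibitors of envelope formation and of the surface protease cascade showed 10 of 18 tested genes called higher and 2 lower, with a median of 1.29. The matriptase gene ST14 rose to 124 ± 9.79 FPKM in HCC827_Er, against 15.9 ± 0.854 FPKM in HCC827, and PRSS8, which encodes its partner protease prostasin, to 35.2 ± 2.22 FPKM in HCC827_Er, against 3.43 ± 0.284 FPKM in HCC827. The kallikrein gene KLK6 rose to 19.1 ± 1.73 FPKM in HCC827_Er, against 0.0433 ± 0.0451 FPKM in HCC827, and the membrane protease gene TMPRSS4 to 23.3 ± 1.43 FPKM in HCC827_Er, against 0.210 ± 0.195 FPKM in HCC827. Of the transglutaminase genes on the list, TGM3 was not in the table. TGM1 stood at 2.87 ± 0.496 FPKM in HCC827_Er and 2.08 ± 1.07 FPKM in HCC827 (log2 difference 0.38, SE 0.23, limma adjusted p = 0.136). TGM2, the most abundant of the 3 tested, stood at 78.9 ± 7.81 FPKM in HCC827_Er and 130 ± 11.4 FPKM in HCC827 (log2 difference -0.72, SE 0.088, limma adjusted p = 5.23e-05), under the minimum difference of 1. TGM5 was called higher, at 2.63 ± 0.582 FPKM in HCC827_Er and 0.337 ± 0.263 FPKM in HCC827, but not with a pseudocount of 5. The serpin genes SERPINB4 and SERPINB3 were the 2 called lower, at 13.8 ± 0.875 and 7.47 ± 0.638 FPKM in HCC827_Er and 93.9 ± 4.02 and 29.1 ± 1.64 FPKM in HCC827, and their reads can be shared between near-identical copies. With a pseudocount of 5, 5 genes of this list were called higher, and with median ratios 4 were called lower.

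Of 23 keratin genes of stratified epithelium, 8 were in the table and 5 were tested, while KRT6A, KRT3 and KRT79 were under the minimum. Of the 5, 4 were called higher, beside 24.7% of all tested genes, and none lower (1 with median ratios), with a median of 2.53. Among the 4, KRT16, KRT4 and KRT78 passed the FPKM minimum only through HCC827_Er, so they had to differ to be tested. Only KRT15 and KRT80 were above it in both lines, and they went in opposite directions. KRT80, the most abundant of the 5, was lower, at 57.2 ± 1.85 FPKM in HCC827_Er and 111 ± 2.56 FPKM in HCC827. Its log2 difference of -0.95 was under the minimum of 1. KRT16, a keratin of activated keratinocytes, rose to 33.0 ± 0.940 FPKM in HCC827_Er, against 0.237 ± 0.224 FPKM in HCC827. KRT4, a keratin of internal stratified epithelia, rose to 8.56 ± 0.271 FPKM in HCC827_Er, against 0.0100 ± 0.0173 FPKM in HCC827, and KRT15, a basal keratin, to 49.1 ± 3.33 FPKM in HCC827_Er, against 7.69 ± 0.419 FPKM in HCC827. Reads of KRT16 can be shared with its pseudogenes.

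The genes for AP-1 subunits, whose motif stands in all 4 upstream sequences printed above, were lower in HCC827_Er or not called. Of 11 named, 7 were in the table and tested. Of these 7, 5 were called lower, beside 19.7% of all tested genes, and none higher. The median log2 difference was -1.54, beside 0.43 over all tested genes. All 5 remained called with either rescaling and without any 1 library. FOS stood at 31.2, 24.9 and 31.2 FPKM in HCC827_Er and at 220, 193 and 199 FPKM in HCC827, and the groups did not overlap (log2 difference -2.77, SE 0.095, limma adjusted p = 2.19e-08). FOSB stood at 0.35, 0.42 and 0.97 FPKM in HCC827_Er and at 49.5, 45.8 and 55.4 FPKM in HCC827. FOSB thus had the largest negative difference of the list (-5.04, SE 0.16, limma adjusted p = 1.23e-08). FOSB passed the FPKM minimum only through HCC827, so it had to differ to be tested, and its p-value has that limit.

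JUN stood at 62.3, 60.3 and 61.4 FPKM in HCC827_Er and at 197, 173 and 172 FPKM in HCC827 (log2 difference -1.54, SE 0.064). JUND averaged 29.8 ± 8.39 FPKM in HCC827_Er and 81.9 ± 12.5 FPKM in HCC827 (log2 difference -1.45), and ATF3, a stress-induced factor that pairs with JUN proteins, 8.04 ± 2.09 FPKM in HCC827_Er and 64.3 ± 8.17 FPKM in HCC827 (-2.87). JUN, JUND and ATF3 did not overlap between the lines. FOSL2 averaged 31.7 ± 0.168 FPKM in HCC827_Er and 57.9 ± 2.02 FPKM in HCC827, a log2 difference of -0.85 that passed the minimum with median ratios alone of the 3 scalings. BATF2 averaged 2.74 ± 0.367 FPKM in HCC827_Er and 1.17 ± 0.114 FPKM in HCC827 (0.78), and was called higher with a pseudocount of 0.1. FOSB transcripts were thus lower in every library of the line in which SPRR1B was read out, and so were those of FOS and JUN. FOSL1, JUNB, BATF and BATF3 were not in the table. How genes entered the table is unknown, so the counts cover only the listed subunits. Transcript levels do not show protein levels, and the part of AP-1 transcripts in the SPRR and IVL values was not tested.

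**Figure D4:**
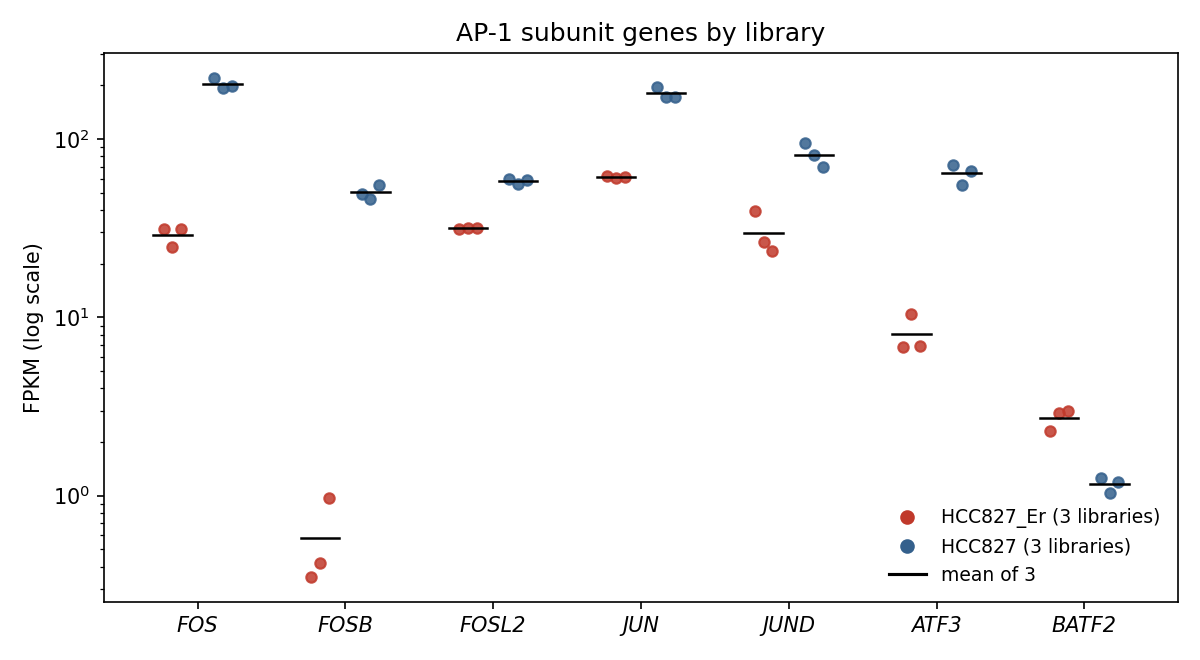
FPKM of the 7 AP-1 subunit genes in each library on a logarithmic axis, HCC827_Er left and HCC827 right of each tick, with a black line at the mean of 3. FOS, FOSB, FOSL2, JUN, JUND and ATF3 lie lower in HCC827_Er in all libraries, and BATF2 lies higher.

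Of the other regulators of keratinocyte differentiation, 13 of 19 tested genes were called higher and none lower, beside 24.7% and 19.7% of all tested genes. With median ratios 11 were called higher and 2 lower, and with equal sums 15 and 0. The median log2 difference was 2.09. Of those called higher, GRHL2, OVOL1, NOTCH3, SOX2, TP63, POU2F3 and HOPX passed the FPKM minimum only through HCC827_Er, so they had to differ to be tested. The grainyhead factor gene GRHL2 rose to 14.2 ± 1.89 FPKM in HCC827_Er, against 0.210 ± 0.0436 FPKM in HCC827, and OVOL1, a zinc finger repressor of late keratinocytes, to 7.39 ± 0.747 FPKM in HCC827_Er, against 0.0567 ± 0.0666 FPKM in HCC827. NOTCH3, a receptor that promotes keratinocyte differentiation, rose to 14.3 ± 1.49 FPKM in HCC827_Er, against 0.713 ± 0.0850 FPKM in HCC827. SOX2 and TP63, factors of squamous and basal cells, rose to 13.3 ± 1.48 and 5.71 ± 0.747 FPKM in HCC827_Er, against 0.180 ± 0.0600 and 0.170 ± 0.0819 FPKM in HCC827. Of the 6 not called, KLF4, HES1, MAF and CEBPA were lower in HCC827_Er, with log2 differences of -0.97, -0.70, -0.70 and -0.47. AHR and ELF3 were higher, at 0.97 and 0.82.

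POU2F3, a POU-domain factor known to bind the octamer of SPRR2A, stood at 1.70, 2.01 and 1.02 FPKM in HCC827_Er and at 0.10, 0.23 and 0.33 FPKM in HCC827. POU2F3 passed the FPKM minimum only through HCC827_Er, so it had to differ to be tested, and its p-value has that limit. The groups did not overlap, and the log2 difference was 1.06 (SE 0.16, limma adjusted p = 0.000183). The value lay close to the minimum difference, and was 0.92 with median ratios, 0.94 without replicate 2 of HCC827_Er and 0.99 without replicate 1 of HCC827, each under it. KLF4, a factor of barrier formation in skin, stood at 12.2, 11.5 and 10.8 FPKM in HCC827_Er and at 23.8, 23.7 and 22.9 FPKM in HCC827. Its log2 difference of -0.97 was under the minimum, and was -1.29 with median ratios, where it was called lower, as it was without replicate 1 of HCC827_Er (-1.01).

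Genes of activated keratinocytes, as in wounded or inflamed skin where SPRR genes are known to be induced, moved in both directions: 11 of 22 tested were called higher and 8 lower (median 1.2). This list shares S100A7, S100A8, S100A9, S100A12, KRT16, PI3, SERPINB3 and SERPINB4 with lists above, so these genes are counted again. Those called higher with the largest differences were S100A9, S100A8, S100A7 and DEFB4A, the last a defensin gene with near-identical copies at 351 ± 18.9 FPKM in HCC827_Er and 7.59 ± 1.04 FPKM in HCC827. SLPI, a secreted protease inhibitor gene, and the chemokine gene CCL20 also rose, to 135 ± 7.54 and 227 ± 27.3 FPKM in HCC827_Er, against 13.3 ± 2.14 and 34.1 ± 2.64 FPKM in HCC827. The neutrophil chemokine gene CXCL1 and NFKBIZ, a nuclear regulator of interleukin-17 responses, fell to 190 ± 5.69 and 93.0 ± 0.701 FPKM in HCC827_Er, against 585 ± 28.5 and 236 ± 3.31 FPKM in HCC827. Genes of retinoid handling and response were split too, 7 of 13 being called higher and 5 lower (median 1.11). With median ratios 5 were called higher and 6 lower, and with a pseudocount of 5 the counts were 5 higher and 1 lower. The retinaldehyde dehydrogenase gene ALDH1A1 fell to 0.840 ± 0.462 FPKM in HCC827_Er, against 883 ± 27.7 FPKM in HCC827. CRABP2, which encodes a retinoic acid-binding protein, and the retinoid-induced gene PLAAT4 rose to 310 ± 9.54 and 154 ± 5.26 FPKM in HCC827_Er, against 22.8 ± 2.48 and 9.66 ± 1.09 FPKM in HCC827.

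**Figure D5:**
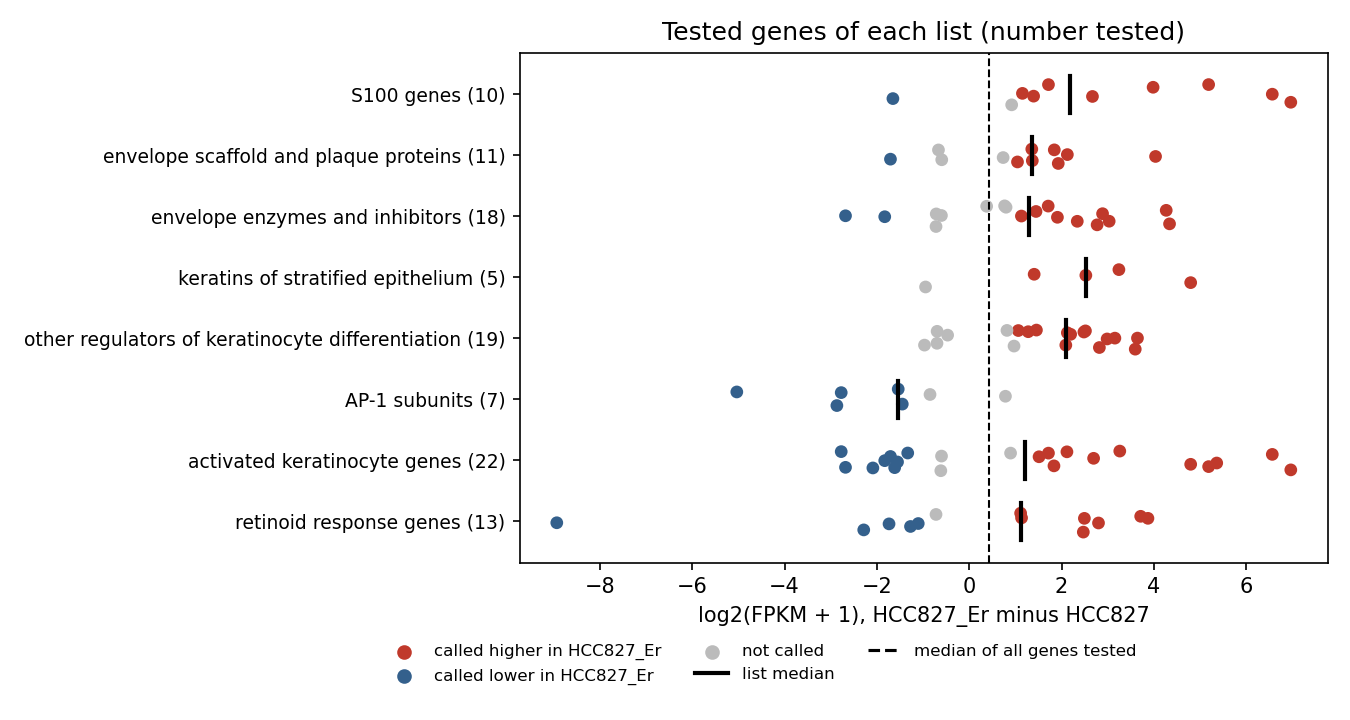
Log2 difference of each tested gene, HCC827_Er minus HCC827 on the log2(FPKM + 1) scale, by gene list, with the number of tested genes in brackets; thick bars are list medians and the dashed line is the median of all tested genes (0.43). The AP-1 list has its median at -1.54 and the other 7 lists between 1.11 and 2.53. Some genes, such as S100A9, KRT16, PI3, SERPINB3 and TGM2, are in more than 1 list and are plotted in each.

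Of 20 lung adenocarcinoma markers, 5 were not in the table: SFTPC, SFTPD, KRT7, KRT18 and CLDN18. SFTA3 was listed under ENSG00000229415 and ENSG00000257520 and counts for each. Of the 16 tested identifiers, 15 were called higher in HCC827_Er, beside 24.7% of all tested genes, and none lower (14 and 1 with median ratios). The exception was the keratin gene KRT8, at 1025 ± 31.7 FPKM in HCC827_Er and 1744 ± 45.9 FPKM in HCC827 (log2 difference -0.77), and 1 of the 16, SFTPA1, was listed at 0 in all 3 HCC827 libraries. NKX2-1, the transcription factor of lung epithelium, stood at 65.7 ± 4.65 FPKM in HCC827_Er and 5.93 ± 0.898 FPKM in HCC827, so SPRR and IVL transcripts were read out in libraries that also held this lung marker. The summed FPKM of the adenocarcinoma list was 3629.9 to 3862.8 in HCC827_Er and 2313.7 to 2406.1 in HCC827. Markers of fibroblasts, leukocytes and endothelium summed to 149.9 to 162.7 FPKM in HCC827_Er and 184.7 to 190.8 FPKM in HCC827, of which CD68 made up a mean of 117 and 174 FPKM. Of the 10 listed, 5 of 8 tested were called higher, beside 24.7% of all tested genes. These were COL1A1, CORO1A, CSF1R, LAPTM5 and CD14, at means of 10.1, 7.66, 5.45, 4.49 and 1.73 FPKM in HCC827_Er and 0.750, 0.703, 0.230, 0.903 and 0.207 FPKM in HCC827. All of these but COL1A1 passed the FPKM minimum only through HCC827_Er. The other tested markers, LUM, CD68 and EGFL7, were lower without being called, with log2 differences of -0.87, -0.57 and -0.40. COL3A1 was listed at 0 in all 3 HCC827_Er libraries, CDH5 was listed at 0 in all 3 HCC827 libraries, and the other 10 marker names were not in the table. The part of other cell types in the SPRR and IVL values was not tested.

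The genes whose pattern over the 6 libraries was most like the mean pattern of the 7 were FHDC1, ERCC6L, DCLK1, RNF145 and G2E3, at Euclidean distances of 0.06 to 0.1 between centred log2(FPKM + 1) values. Their log2 differences lay between 1.27 and 1.35. They ranged from DCLK1, at 1.71 ± 0.285 FPKM in HCC827_Er and 0.0633 ± 0.0351 FPKM in HCC827, to RNF145, at 76.6 ± 5.26 FPKM in HCC827_Er and 31.2 ± 0.557 FPKM in HCC827. The 7-gene mean includes CRCT1, which went against the others, so this likeness is to an average that no single gene of the 7 follows.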

How the data were processed

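Total RNA of 6 samples, 3 labelled HCC827_Er and 3 labelled HCC827, was sequenced from Illumina TruSeq RNA libraries, per the labels' protocols. The authors deposited FPKM values per gene and library, fragments scaled by transcript length and mapped fragments, with no counts, so the depth and counting error of these low-level genes are unknown. The submitters' processing notes name fastp, HISAT2 and StringTie, and list GRCh38.p14 and hg19 without roles. For tool versions, the annotation and how the listed genes were selected, the answer is not given in the sources used here.

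Symbols were matched by identifier for 6636 of 6641 genes, and positions were taken from GENCODE 29 (GRCh38) for 6353. The 5276 genes that reached FPKM 1 in 3 or more libraries (1365 were set aside) were fitted as log2(FPKM + 1) with limma 3.58.1 in R 4.3.3, with the line as the only term, a mean-variance trend and Benjamini-Hochberg adjustment over all tested genes. A call needed an adjusted p below 0.05 together with a log2 difference of 1 or more in size. The fit was tested on simulated data. The 7 genes and all gene lists were chosen with earlier results of these data known. Named genes were the 7, all listed AP-1 and epidermal differentiation complex genes, all listed chromosome 1 neighbours and up to 4 called genes per list with the largest differences whose mean FPKM reached 5 in the higher line. POU2F3, TP63, KLF4, PI3, SERPINB3, SERPINB4, SERPINB5, TGM1, TGM5, SLPI and CCL20 were named after their values were seen. So were CXCL1, NFKBIZ, KLK8, CD14, LAPTM5, CD68, KRT8, KRT80, TGM2, genes named as under the minimum, and those named under the other observations. The same holds for KRT78, ANXA1, SERPINB2, JUP, HES1, MAF, CEBPA, AHR, ELF3, LUM and EGFL7. Some genes that this rule names are not reported here. Alternatives covered the pseudocount, the minimum, the scaling, the variance model, a block for the replicate number, and leaving out single libraries. Promoter letters were taken from RefSeq on GRCh38.p14 and coding letters from GENCODE 29 transcripts, aligned with Biopython 1.88.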

Additional observations from a re-analysis of the deposited data

How the results depend on the processing

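For 6 of the 7 genes, listed at 0 in all libraries of a line, no alternative could turn the sign. The size of the difference did depend on the processing. With a pseudocount of 5 none of the 7 reached a log2 difference of 1. With median ratios, and without replicate 3 of HCC827_Er, 6 did, IVL being the one under it. In the other alternatives all that were tested reached it, but several could not alter the value. The minimum, the variance model and the replicate block leave a log2 difference as it was. So does leaving out an HCC827 library for the 5 SPRR genes. With the minimum applied to the mean of the 6 libraries IVL, SPRR2E and CRCT1 were not tested, which left 4 genes. Of 405 counts, 383 stayed within 1.5 times of the count given. Counts under the variance model and the replicate block could change only through the adjusted p, since log2 differences stayed as they were. In the main fit that p was under 0.05 for 5187 of the 5276 tested genes, so these counts could hardly move. The 405 include the epidermal differentiation complex list, where no gene was called in any setting. They also include how many of the 7 genes had a difference above 0, which is not a count of calls. A pseudocount of 5 shrinks low genes by construction: it gave 579 genes called higher and 506 lower of all tested, 3 scaffold genes, 5 enzyme genes and 7 activated keratinocyte genes higher, 2 fibroblast, leukocyte and endothelial markers higher, and 1 retinoid gene and 1 chromosome 1 neighbour lower. A pseudocount of 0.1 gave 2 scaffold genes lower, 1 AP-1 gene higher, 2 other regulators lower and 1 fibroblast, leukocyte and endothelial marker lower. Median-ratio rescaling gave 1657 genes lower in all, and 4 enzyme genes, 1 keratin, 2 other regulators, 1 adenocarcinoma marker, 1 fibroblast, leukocyte and endothelial marker and 5 chromosome 1 neighbours lower; the cause was not tested. Leaving out 1 library in turn gave 0 to 1 other regulators and 0 to 1 fibroblast, leukocyte and endothelial markers lower, and all-gene counts of 1298 to 1334 higher and 1034 to 1056 lower. Of 1121 values of other named genes none changed sign and 47 changed call. The replicate numbers did not pair the libraries (correlations of deviations of 0.106, -0.0219 and 0.0489 for numbers 1, 2 and 3). With the replicate number as a block 1304 genes were called higher and 1041 lower. The block is balanced over the lines, so the log2 differences of the 7 genes could not change with it. Sequencing depth is unknown, so counting error of values near 1 FPKM cannot be given.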

Other observations

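The 5 SPRR genes belong to 42 genes that were listed at 0 in all 3 HCC827 libraries and stood at FPKM of at least 1 in all 3 HCC827_Er libraries. The reverse held for 36 genes, CRCT1 among them. Of the 37 others in the first set, 5 were on one of the gene lists by function and 32 on none, 19 of these protein-coding. The 5 were S100A12, at 1.72, 2.95 and 2.30 FPKM in HCC827_Er, the kallikrein gene KLK8, at 5.37, 4.01 and 3.07 FPKM, and SERPINB5, which encodes maspin, at 2.28, 3.13 and 2.92 FPKM, together with the homeobox gene HOPX, at 1.21, 2.44 and 1.71 FPKM, and the lung surfactant gene SFTPA1, which has a near-identical copy, at 1.98, 3.06 and 1.96 FPKM. Among the genes on no list, the membrane protease gene TMPRSS11E stood highest of the protein-coding ones, at 16.74, 20.25 and 19.65 FPKM in HCC827_Er, and others were as different as CNTN1, EDNRA, PMCH and TNNI2.

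When the pattern of the 5 SPRR genes alone was used, a choice made after seeing the data, the nearest genes were ENPP5, SERPINB5, MPZL2, ABHD17C and LCAL1, at distances of 0.095 to 0.145. Of these SERPINB5 was also listed at 0 in every HCC827 library.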
